A study of Mus musculus with 24 samples.

Results

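Regions of the mouse genome that carried both Sox9 and H3K4me3 peaks were examined in kidney cells after injury. Peaks of 16 libraries on chromosomes 1 to 19 were merged wherever they overlapped or touched, and a merged region counted as present in a library with 1 bp of overlap. A region was taken as shared when it was present in 2 or more Sox9 lists and in 2 or more H3K4me3 lists, and in at most 7 of the 16 lists. This left 1489 shared regions of 497341 merged regions (0.299%). The presence of peaks chose these regions, so their counts of lists are given as a description.

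Sox9 is a transcription factor of the SRY-related family that bends DNA through its HMG box. In the kidney it is switched on in tubule cells after acute injury and marks cells that take part in repair. H3K4me3 is a histone modification deposited around the starts of active and poised genes, mostly those with CpG-rich promoters. CUT&RUN maps such factors and marks by tethering a nuclease to an antibody in permeabilised cells and sequencing the released fragments.

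All libraries came from male Sox9IRES-CreERT2/+:R26RtdT/+ mice of 9 to 12 weeks with bilateral renal ischaemia-reperfusion injury. Tamoxifen was given at the injury, so the tdTomato label marks cells in which the Sox9 locus drove Cre at that time, together with their progeny. Labelled cells were sorted from cortex and outer medulla on day 10 or at 48 h after injury, per the sample titles (the cell type label names day 10 for all samples). The groups were Sox9 at 10 days, Sox9 at 48 h, H3K4me3 at 10 days and H3K4me3 at 48 h, with 4 libraries labelled as biological replicates in each, and no uninjured group was analysed here. In a sorted bulk population, signal in more cells and more signal per cell cannot be told apart.

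The lists held 7379 to 81519 autosomal peaks for Sox9 and 24718 to 84789 for H3K4me3, and sequencing depth is unknown. The height of a peak, solved from its deposited fold and p-value, was a whole multiple of a list-specific step in 99.85% to 100% of peaks of a list (tolerance 0.05), and 92.3% to 97.8% of the peaks stood at 1 step. An H3K4me3 peak lay within 1000 bp of the start of a mean of 15.9% of 16456 genes per H3K4me3 library, and 3 genes had one in 8 of 8. Of the defining markers of the injured and proximal tubule, Havcr1, Krt8 and Hnf4a had an H3K4me3 peak at the start in 0 of 8 H3K4me3 libraries, Lrp2 and Pax8 in 1 and Slc34a1 in 2. Among markers of other cells, the endothelial genes Kdr and Tek had one in 1 and 0 libraries, the immune genes Ptprc, Cd3e and Itgam in 0, 0 and 1, and the stromal gene Pdgfra in 0. Values at starts were available for these of the 19 marker genes only. By list, a mean of 14% of 17 proximal tubule genes and 7.14% of 14 injured tubule genes had one per library. The means were 14.1% of 8 endothelial, 2.5% of 10 immune and 1.79% of 7 stromal genes. Coverage was thus too thin to check the labelled cell type from these starts.

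Shared regions at gene starts often lay in GC-rich sequence. The 300 bases from 250 before to 50 after the start are shown 5′ to 3′ for the 6 that were present in 7 lists among the 15 highest-ranked regions at gene ends, and for Slc27a2, the region at a proximal tubule gene. They were taken from RefSeq, GRCm38.p6, the assembly of mm10. Capitals mark bases under a peak of at least 1 Sox9 list and at least 1 H3K4me3 list, lower case the rest.
Exoc8: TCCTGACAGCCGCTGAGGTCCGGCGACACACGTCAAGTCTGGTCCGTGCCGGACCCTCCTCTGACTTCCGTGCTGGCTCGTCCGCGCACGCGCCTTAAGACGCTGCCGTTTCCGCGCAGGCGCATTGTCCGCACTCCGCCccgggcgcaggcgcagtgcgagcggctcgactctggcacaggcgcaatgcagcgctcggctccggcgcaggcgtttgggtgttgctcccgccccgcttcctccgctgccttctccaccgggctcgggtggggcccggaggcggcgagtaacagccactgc
Pithd1: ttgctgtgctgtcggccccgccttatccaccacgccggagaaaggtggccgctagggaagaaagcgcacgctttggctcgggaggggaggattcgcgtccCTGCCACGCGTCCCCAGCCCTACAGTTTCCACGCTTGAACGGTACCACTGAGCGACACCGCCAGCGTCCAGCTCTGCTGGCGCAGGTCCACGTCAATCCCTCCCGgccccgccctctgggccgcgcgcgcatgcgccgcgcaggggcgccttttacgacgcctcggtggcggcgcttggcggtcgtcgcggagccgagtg
Ankrd10: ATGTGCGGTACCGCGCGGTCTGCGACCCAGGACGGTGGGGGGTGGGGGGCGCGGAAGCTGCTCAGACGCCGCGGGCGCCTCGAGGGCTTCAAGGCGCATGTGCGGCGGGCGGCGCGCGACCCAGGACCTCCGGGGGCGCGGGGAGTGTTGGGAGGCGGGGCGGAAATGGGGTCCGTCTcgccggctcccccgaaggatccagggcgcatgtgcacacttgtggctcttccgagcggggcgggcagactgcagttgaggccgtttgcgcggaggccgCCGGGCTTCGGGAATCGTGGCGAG
Zfp810: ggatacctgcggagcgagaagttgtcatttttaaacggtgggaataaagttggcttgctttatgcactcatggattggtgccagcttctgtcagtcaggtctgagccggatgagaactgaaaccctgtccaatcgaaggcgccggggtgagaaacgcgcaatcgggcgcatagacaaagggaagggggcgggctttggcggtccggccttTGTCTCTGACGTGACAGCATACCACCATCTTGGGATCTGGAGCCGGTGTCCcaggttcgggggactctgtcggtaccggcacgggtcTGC
Dnajb12: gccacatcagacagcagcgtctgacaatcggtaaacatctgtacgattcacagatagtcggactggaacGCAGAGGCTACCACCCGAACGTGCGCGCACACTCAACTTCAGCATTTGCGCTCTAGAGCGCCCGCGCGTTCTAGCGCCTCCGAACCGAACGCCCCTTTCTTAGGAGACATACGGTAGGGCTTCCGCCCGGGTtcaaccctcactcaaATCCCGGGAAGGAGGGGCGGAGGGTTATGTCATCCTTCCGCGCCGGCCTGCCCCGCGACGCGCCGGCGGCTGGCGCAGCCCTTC
Basp1: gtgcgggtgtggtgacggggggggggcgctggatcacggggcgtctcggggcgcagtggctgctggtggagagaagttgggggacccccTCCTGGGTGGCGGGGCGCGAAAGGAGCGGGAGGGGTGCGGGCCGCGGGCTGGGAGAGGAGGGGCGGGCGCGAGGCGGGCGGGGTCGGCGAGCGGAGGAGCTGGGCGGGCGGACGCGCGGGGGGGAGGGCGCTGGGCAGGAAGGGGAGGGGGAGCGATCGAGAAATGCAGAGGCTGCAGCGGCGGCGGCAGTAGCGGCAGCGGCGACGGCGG
Slc27a2: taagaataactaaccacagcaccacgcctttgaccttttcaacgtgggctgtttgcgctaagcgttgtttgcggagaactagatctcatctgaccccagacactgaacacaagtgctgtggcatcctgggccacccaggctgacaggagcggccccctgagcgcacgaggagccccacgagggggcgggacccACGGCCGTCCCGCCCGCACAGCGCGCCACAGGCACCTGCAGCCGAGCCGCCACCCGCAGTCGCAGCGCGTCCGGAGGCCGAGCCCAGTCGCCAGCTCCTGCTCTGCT

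The Exoc8 window was chr8:124897656-124897955 on the minus strand. Exoc8 encodes a subunit of the exocyst, a complex that tethers secretory vesicles, and its start is shared with that of Sprtn, a protease of DNA-protein crosslinks, which is read the other way. Both antibodies covered 140 of the 300 bases, and 85 bases lay under peaks of 2 or more lists of each antibody. The Pithd1 window was chr4:135987195-135987494 on the minus strand, with 105 bases under both antibodies and 23 under 2 or more lists of each. The Ankrd10 window was chr8:11634987-11635286 on the minus strand, with 202 and 14 bases by the same counts. The window of another Ankrd10 start in this region, chr8:11635708-11636007, is not shown and had 203 and 0 such bases and 27 CpG pairs. The Basp1 window was chr15:25413715-25414014 on the minus strand, with 211 and 3 such bases. Basp1 encodes a membrane-associated signalling protein that also acts as a corepressor of WT1.

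At the other starts shown, no base lay under 2 or more lists of each antibody, although the whole region met the rule. The Dnajb12 window, at the gene of a chaperone of the endoplasmic reticulum membrane, was chr10:59879333-59879632 on the plus strand and had 216 bases under both antibodies. The Zfp810 window, at a zinc finger gene, was chr9:22307589-22307888 on the minus strand and had 54 such bases. The Slc27a2 window was chr2:126552774-126553073 on the plus strand and had 107. CpG pairs numbered 39 in the Exoc8 window, 39 in Pithd1, 41 in Ankrd10, 38 in Basp1, 33 in Dnajb12, 20 in Zfp810 and 25 in Slc27a2. The Sox-type letters ACAAAG or ACAATG, on either strand, occurred 1 time in the Exoc8 window, within its capitals, and 2 times in that of Zfp810. They were absent from the other 5 windows shown, which says only that these letters are not there.

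Most shared regions were just inside the rule. Of the 1489 regions, 617 were in 4 lists, 438 in 5, 288 in 6 and 146 in 7. Sox9 contributed 2 lists to 1086 regions, 3 to 322, 4 to 76 and 5 to 5. H3K4me3 contributed 2 lists to 811 regions, 3 to 438, 4 to 195 and 5 to 45. The regions were 120 to 1473 bp wide with a median of 497 bp, against 136 bp for all merged regions. Their median width was 428 bp in 4 lists, 518 bp in 5, 592 bp in 6 and 625 bp in 7, since peaks that lie side by side were joined.

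Joining decided part of the membership. A base covered by peaks of 2 or more lists of each antibody was present in 697 shared regions (46.8%) and absent from 792. In 1487 regions at least 1 Sox9 peak overlapped an H3K4me3 peak directly, and in 2 regions no such pair existed. The summits of a Sox9 and an H3K4me3 library at the same region were a median of 121 bp apart (quartiles 51 and 228 bp, 9165 pairs of libraries). Summits of a pair of Sox9 libraries were 122 bp apart (2558 pairs) and those of a pair of H3K4me3 libraries 122 bp (3745 pairs). In regions with a base in 2 or more lists of each, the medians were 83, 83 and 93 bp for the same kinds of pairs. The summits of different antibodies thus lay about as far apart as those of the same antibody, as a description with no test, since pairs share regions and libraries.

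The boundary of the rule was crowded on its lower side, where 3590 regions were in 2 lists of one antibody and 1 of the other. The named examples were chr6:132463692-132463807, with a highest peak of 75 steps, chr5:138986184-138986379, with 31, and chr3:37897156-37897482, with 13. On the upper side, 114 regions with 2 or more lists of each antibody were in 8 lists. The named examples were chr3:153123749-153123924 (19 steps), chr12:104442334-104442722 (7 steps) and chr6:9179723-9179909 (6 steps). Just inside, the named region present in 7 lists with the greatest height away from genes, chr10:37263691-37263813, reached 20 steps.

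Most peaks at shared regions stood at 1 step, though taller peaks were more frequent there than elsewhere. Of 7606 peaks, 5977 (78.6%) stood at 1 step, 1302 at 2 steps, 204 at 3 steps and 123 at 4 or more. No peak above 1 step was present in 561 shared regions (37.7%), while 520 had one in 1 list, 238 in 2 lists and 99 in 3. Such a taller peak was found in Sox9 at 452 regions, in H3K4me3 at 744 and in both antibodies at 268 (18%). The same counts were not made for other regions. Peaks of 10 or more steps numbered 36 in 13 regions, of which 0 had a summit within 1000 bp of a protein-coding gene end, and the highest peak reached 324 steps.

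The 15 highest-ranked shared regions with a protein-coding gene end within 1000 bp of the region had at most 6 steps in any library. They were ranked by the number of lists with a taller peak, then by the number of lists, then by summed height. The Exoc8 and Sprtn region, chr8:124897462-124898318, had no Sox9 peak at 10 days and Sox9 peaks of 2 and 1 steps in 48 h replicates 2 and 4. Its H3K4me3 peaks had 6, 2, 1 and 1 steps in 10 d replicates 1, 2, 3 and 4, against 2 steps in 48 h replicate 3. H3K4me3 was thus present in all 10 d libraries and in 1 of 4 at 48 h, and Sox9 at 48 h alone. The Pithd1 region, chr4:135986629-135987536, had Sox9 peaks of 1 and 2 steps in 10 d replicates 1 and 3, against 1 and 1 in 48 h replicates 2 and 4. Its H3K4me3 peaks had 3 and 2 steps in 10 d replicates 1 and 3, against 2 in 48 h replicate 3. Here each antibody was found at both times, in at most 2 of the 4 libraries of a group.

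**Figure D1:**
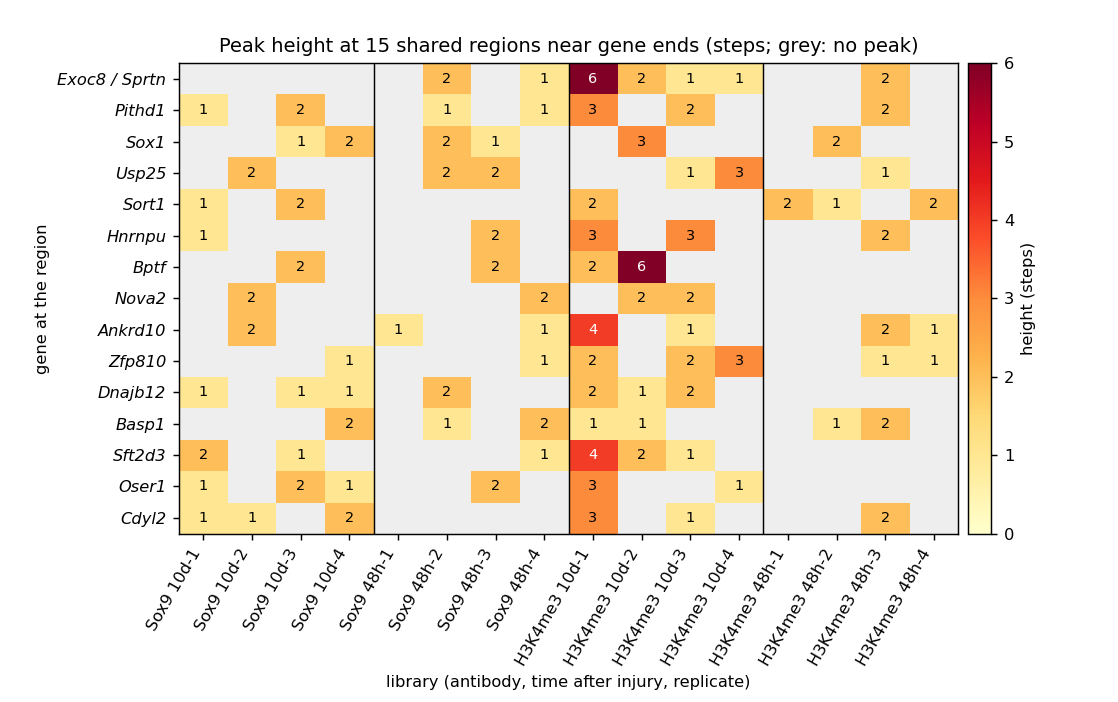
Height in steps of the highest peak of each library (columns, grouped by antibody and time, then replicate) at the 15 highest-ranked shared regions with a protein-coding gene end within 1000 bp (rows). Grey marks a library without a peak; most peaks stand at 1 to 3 steps, and no row is filled in more than 7 of 16 libraries.

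Regulators of chromatin and RNA named by the ranking were Bptf, Hnrnpu, Nova2 and Cdyl2. In the plot of heights, Bptf, a subunit of the NURF remodelling complex whose PHD finger binds H3K4me3, had Sox9 peaks of 2 steps in 10 d replicate 3 and of 2 steps in 48 h replicate 3. In H3K4me3 its region, chr11:107131304-107131942, had 2 and 6 steps in 10 d replicates 1 and 2 and no peak at 48 h. Hnrnpu, an abundant nuclear RNA-binding protein, had Sox9 peaks of 1 step in 10 d replicate 1 and 2 steps in 48 h replicate 3. In H3K4me3 it had 3 and 3 steps in 10 d replicates 1 and 3, against 2 steps in 48 h replicate 3. Nova2, a splicing factor of neurons, had 2 steps in each of the 4 libraries with a peak, namely Sox9 10 d replicate 2, Sox9 48 h replicate 4 and H3K4me3 10 d replicates 2 and 3. Cdyl2, a chromodomain protein, had Sox9 peaks of 1, 1 and 2 steps in 10 d replicates 1, 2 and 4 and none at 48 h. For H3K4me3 the heights were 3 and 1 steps in 10 d replicates 1 and 3, against 2 in 48 h replicate 3.

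Usp25, a deubiquitinase, had Sox9 peaks of 2 steps in 10 d replicate 2 and of 2 and 2 steps in 48 h replicates 2 and 3. In H3K4me3 there were 1 and 3 steps in 10 d replicates 3 and 4, against 1 step in 48 h replicate 3. Sort1, the sorting receptor sortilin, had Sox9 peaks of 1 and 2 steps in 10 d replicates 1 and 3 and none at 48 h. It was present in H3K4me3 at 2 steps in 10 d replicate 1, against 2, 1 and 2 steps in 48 h replicates 1, 2 and 4. Sort1 was thus the one of the 15 with H3K4me3 in more 48 h than 10 d libraries by as many as 2. Ankrd10, Zfp810, Dnajb12, Basp1, Sft2d3 and Oser1 had highest peaks of 4, 3, 2, 2, 4 and 3 steps, and in Ankrd10, Sft2d3 and Oser1 the highest was that of H3K4me3 10 d replicate 1.

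Shared regions lay at gene ends several times as often as other peaks of the same library. A summit fell within 1000 bp of an end of a protein-coding gene in 520 shared regions (34.9%), against 6.95% of all merged regions. Another 484 (32.5%) lay inside a protein-coding gene away from its ends, and 485 (32.6%) lay in none. In Sox9 libraries 32.6% ± 5.83 (SD, n = 8) of the peaks at shared regions were at gene ends, against 8.36% ± 1.54 (SD, n = 8) of all other peaks, a difference of 24.2 percentage points that was positive in 8 of 8 libraries. In H3K4me3 libraries the shares were 32.2% ± 5.06 (SD, n = 8) at shared regions and 8.42% ± 0.850 (SD, n = 8) elsewhere, a difference of 23.7 points, again in 8 of 8. Flipping the signs of the 8 library differences in a two-sided exact permutation test, p was 0.00781 in Sox9 and in H3K4me3, which is as low as 8 libraries allow (0.0203 after Benjamini-Hochberg adjustment over 13 tests). Libraries share shared regions, so these 8 values are not fully independent. Other peaks were not matched on the number of lists, and 445035 of 480760 merged regions outside chromosome 18 were in 1 list. The test therefore cannot tell sharing by both antibodies from presence in more lists. A matched comparison, made for gene starts, is given below.

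**Figure D2:**
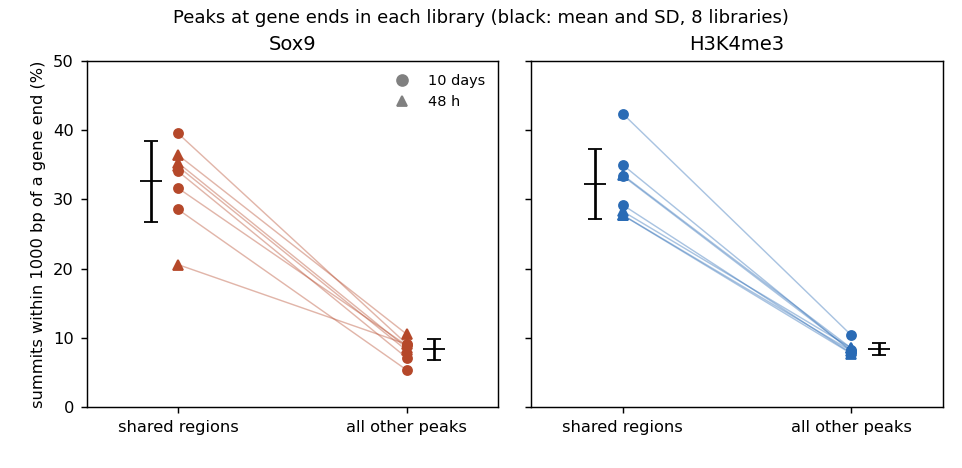
Percent of peak summits within 1000 bp of a protein-coding gene end for peaks at shared regions and for all other peaks of the same library (lines join a library; circles 10 days, triangles 48 h; black bars mean and SD of 8 libraries). In each of the 16 libraries the value at shared regions is the higher one, from 20.6% to 42.4% against 5.36% to 10.5%.

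The lowest Sox9 value at shared regions, 20.6%, was that of 48 h replicate 1, the shortest list, and the highest H3K4me3 value, 42.4%, that of 10 d replicate 1, the longest. The difference was smaller among taller peaks. For peaks of 2 or more steps it was 8.17 points in Sox9 (22.5% at shared regions and 14.4% elsewhere, exact sign-flip permutation p = 0.0312) and 2.61 points in H3K4me3 (22.9% and 20.3%, p = 0.148 by the same permutation test). In H3K4me3 the difference therefore no longer passed. With only the 697 regions that held a base in 2 or more lists of each antibody, the difference was 13.3 points in Sox9 (exact permutation p = 0.0156) and 13.2 points in H3K4me3 (exact permutation p = 0.00781). For gene starts alone, where strand was known, 457 of 1448 shared regions outside chromosome 18 had a summit within 1000 bp of a start (31.6%), against 4.71% of all merged regions.

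At each number of lists from 3 to 7, regions were at gene starts more often than regions in 1 list. Regions in 1 list were at a start in 3.66% of cases, those in 2 lists in 14% and those in 3 lists in 31%. Shared regions in 4 lists were at a start in 32.4% (n = 601), against 41.3% (n = 970) of one-sided regions. One-sided means in the same number of lists but in at most 1 list of one antibody. Of the 970, 616 had 1 Sox9 and 3 H3K4me3 lists and 164 had 3 and 1. Another 178 had H3K4me3 lists alone and 12 had Sox9 lists alone. Most one-sided regions in 4 lists thus also held a list of the other antibody. For 5 lists the shares were 35.8% of 425 shared and 37.8% of 241 one-sided regions, for 6 lists 26.4% of 280 and 25.5% of 55, and for 7 lists 25.4% of 142 and 15.8% of 19. Regions in 8 or more lists were at a start in 8.07% (31 of 384).

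**Figure D3:**
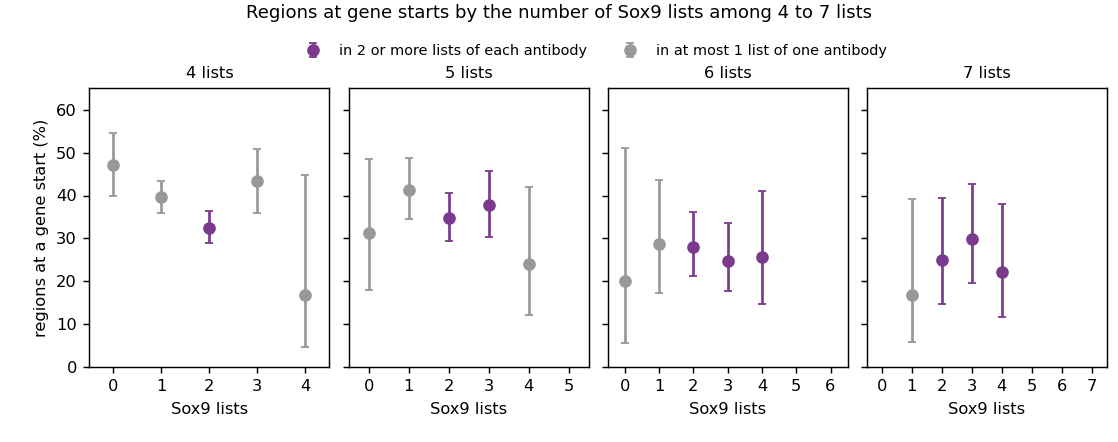
Percent of merged regions with a summit within 1000 bp of a gene start, by the number of Sox9 lists (x axis) among 4, 5, 6 or 7 lists in all (panels), for combinations with at least 10 regions (purple, shared regions; grey, one-sided regions; bars, 95% Wilson intervals, counting error only). In 4 lists the 2 and 2 split stands at 32.4%, with 3 Sox9 lists and 1 H3K4me3 list at 43.3% and with 1 and 3 at 39.6%.

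Per library, the comparison at equal numbers of lists did not pass for either antibody. The share at starts averaged 0.652 points higher at shared than at one-sided regions in Sox9, with a positive value in 6 of 8 libraries (range -8.43 to 4.59, two-sided exact sign-flip permutation p = 0.711). In H3K4me3 the mean difference was -2.60 points (range -8.46 to 2.34, positive in 3 of 8, exact permutation p = 0.0938, adjusted 0.174). Without matching on the number of lists, the means were 30.5% at shared and 36.7% at one-sided regions in Sox9, and 29.9% and 38.0% in H3K4me3. Shared regions with a base in 2 or more lists of each antibody were at a start in 21.4% (144 of 674), against 40.4% (313 of 774) of those without one. With only these as members, the matched difference was -6.37 points in Sox9 (exact permutation p = 0.0156) and -10.0 points in H3K4me3 (exact permutation p = 0.00781), but the one-sided regions were not narrowed in the same way. The comparison with one-sided regions, and those of summit position and CpG pairs that follow, were added after the data were seen.

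Around starts, the summit positions of the antibodies did not differ beyond the spread. Summits within 1000 bp of a start had a median position of 148 ± 25.3 bp downstream in Sox9 and 152 ± 46.1 bp in H3K4me3 (mean of library medians, SD, n = 8 each). The difference of -3.75 bp was smaller than the spread (two-sided exact permutation within time, p = 0.845). The share of summits in the first 200 bp downstream was 31.0% ± 4.63 in Sox9 and 30.2% ± 4.98 in H3K4me3 (SD, n = 8 each). H3K4me3 10 d replicate 1 stood apart with a median of 53 bp, and without its pellet the difference was -17.1 bp (exact permutation p = 0.19). With only regions that held a base in 2 or more lists of each antibody, the medians were 156 bp in Sox9 and 188 bp in H3K4me3, a difference of -31.9 bp (exact permutation p = 0.202).

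**Figure D4:**
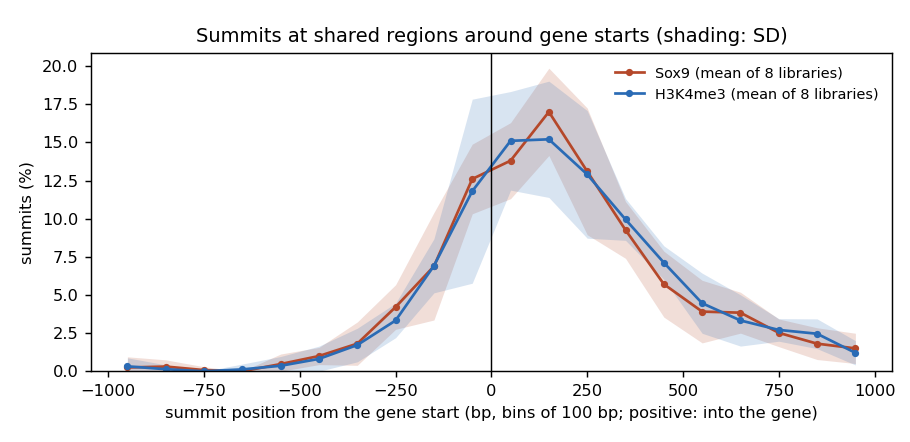
Position of peak summits at shared regions relative to the nearest gene start (x axis, bp, bins of 100 bp, positive into the gene), as the mean percent of the summits within 1000 bp over 8 Sox9 and 8 H3K4me3 libraries, with SD as shading. Both curves are highest from 100 to 200 bp downstream, at 17% for Sox9 and 15.2% for H3K4me3.

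The promoters under shared regions were CpG-rich. In the 300-base window of starts overlapped by a peak, Sox9 peaks at shared regions had 32.0 ± 1.30 CpG pairs and other Sox9 peaks 24.7 ± 1.30 (SD, n = 8 libraries each). For H3K4me3 the values were 31.9 ± 1.43 at shared regions and 25.2 ± 0.465 elsewhere (SD, n = 8 libraries each). The differences of 7.25 and 6.63 pairs were positive in 8 of 8 libraries of each antibody, and p was 0.00781 in both by exact sign-flip permutation (adjusted 0.0203). Here too, other peaks were not matched on the number of lists. Over promoters, the mean was 30.5 pairs at 369 promoters of shared regions, 29.6 at 379 of one-sided regions, 20.9 at 5079 of regions in 1 list and 15.7 over all 20084. GC content was 68.3% at shared and 67.6% at one-sided regions, 61.6% at regions in 1 list and 56.5% over all promoters.

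Sox-type letters were less frequent at these promoters than over all promoters. ACAAAG, on either strand, was present in 10.3% of the promoters at shared regions, 10.6% at one-sided regions, 12.9% at regions in 1 list and 16.6% of all promoters. ACAATG was present in 3.52%, 3.69%, 7.86% and 10.4% of the same 4 groups. GGGCGG, the letters bound by Sp-type factors, was present in 83.2% at shared regions, 78.9% at one-sided regions, 62.9% at regions in 1 list and 47% of all promoters. TGANTCA, the letters bound by AP-1 factors, was present in 2.44%, 3.17%, 5.1% and 7.06% of the same groups. The groups also differed in base composition, as given above, its part in these shares was not tested, and letters alone say nothing on binding.

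Within the shared regions, Sox9 peaks were less often tall than H3K4me3 peaks. Peaks of 2 or more steps made up 21.4%, 13.1%, 10.3% and 20.4% of the peaks at shared regions in Sox9 10 d replicates 1 to 4, and 11.1%, 16.6%, 15.6% and 11.6% in Sox9 48 h replicates 1 to 4. In H3K4me3 they made up 39.8%, 22.7%, 27.3% and 20.8% in 10 d replicates 1 to 4, and 20.8%, 21.6%, 20.4% and 17.9% in 48 h replicates 1 to 4. The antibodies did not overlap except that Sox9 10 d replicate 1 reached 21.4% and replicate 4 20.4%, within the H3K4me3 range. The means were 15.01% ± 4.22 in Sox9 and 23.9% ± 6.96 in H3K4me3 (SD, n = 8 each), a difference of -8.89 points. A two-sided exact permutation test within time gave p = 0.000816 (adjusted 0.0106).

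List length moved with this difference. The Sox9 list was the shorter one at 7 of 8 pellets, and elsewhere in the genome taller peaks made up 2.72% ± 0.654 of Sox9 and 3.79% ± 1.56 of H3K4me3 peaks (SD, n = 8 each). Each list was also cut by p to the shortest list of its antibody, 7379 peaks in Sox9 and 24718 in H3K4me3. The difference was then 5.80 points in the other direction (75.4% in Sox9 and 69.6% in H3K4me3, exact permutation p = 0.608). The antibodies were not cut to a common length, and this selection keeps mostly taller peaks. The value therefore cannot settle the part of list length in the difference, which was not tested.

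**Figure D5:**
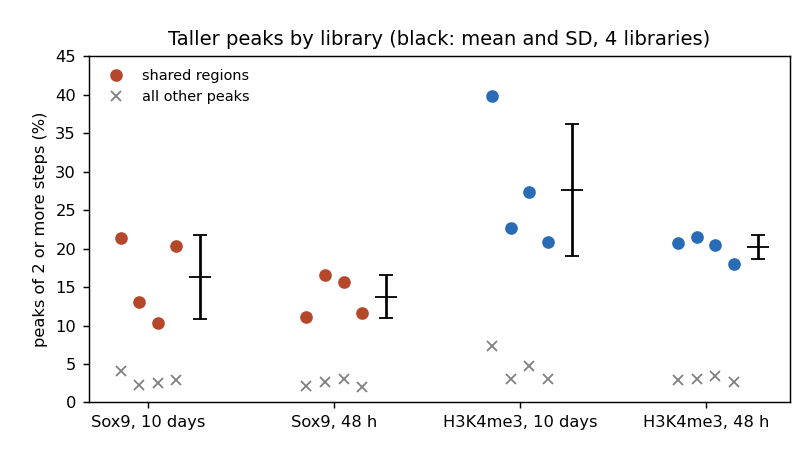
Percent of peaks of 2 or more steps at shared regions (filled points, 1 per library in order of replicate) and among all other peaks of the same library (crosses), by antibody and time (black bars, mean and SD of 4 libraries). H3K4me3 10 d replicate 1 is highest at 39.8%, and all other peaks stay at 2.01% to 7.34%.

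The share of a library's peaks that lay at shared regions is given as a description, since presence chose the regions. Of the autosomal Sox9 peaks, 0.855%, 2.21%, 2.27% and 1.60% lay at shared regions in 10 d replicates 1 to 4, against 3.29%, 2.09%, 2.76% and 2.19% in 48 h replicates 1 to 4. The means were 1.73% ± 0.658 at 10 days and 2.58% ± 0.557 at 48 h (SD, n = 4 each), a difference of -0.850 points. Without 10 d replicate 1, the longest Sox9 list, the difference was -0.558 points. For H3K4me3 the shares were 1.01%, 1.45%, 1.04% and 1.22% at 10 days, against 1.42%, 1.33%, 1.35% and 1.44% at 48 h. The difference was -0.205 points. Each list was also reduced by p to the length of the shortest list of its antibody. This gave 0.898% at 10 days and 1.52% at 48 h in Sox9 (-0.623 points) and 0.638% and 0.702% in H3K4me3 (-0.0637 points).

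The share of taller peaks at shared regions did not pass between the times for either antibody. In Sox9 they made up 16.3% ± 5.42 at 10 days and 13.7% ± 2.78 at 48 h (SD, n = 4 each; two-sided exact permutation p = 0.4). In H3K4me3 they made up 27.6% ± 8.56 at 10 days and 20.2% ± 1.57 at 48 h (SD, n = 4 each), a difference of 7.48 points (exact permutation p = 0.0571, adjusted 0.124). Without H3K4me3 10 d replicate 1 this difference was 3.42 points (p = 0.0571 by the exact test). Without 10 d replicate 4 it was 9.76 points, and with only regions that held a base in 2 or more lists of each it was 7.48 points, both at an exact permutation p of 0.0286. In Sox9 the difference was 2.58 points, and 0.888 without 10 d replicate 1. With equal list lengths by p the shares were 89.6% at 10 days and 61.3% at 48 h in Sox9 (28.3 points, exact permutation p = 0.114), and 82.2% and 57.0% in H3K4me3 (25.2 points, exact permutation p = 0.229).

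Shared regions were seen at 1 time alone about as often as all regions in 4 to 7 lists. Those 2816 regions include the 1489 shared ones and were not matched to them on the number of lists. Peaks came from both times in 1391 regions, from 10 days only in 85 (5.71%), against 5.93% of all regions in 4 to 7 lists, and from 48 h only in 13 (0.873%), against 1.07%. These shares lie near the background. More lists came from 10 days in 795 regions, more from 48 h in 367, and equal numbers in 327. The 10 d lists held 66.5% of all autosomal peaks and 57.8% of the peaks at shared regions. With any 1 pellet of 48 h left out and the 1489 regions kept as chosen, 152 to 226 of them had peaks at 10 days only. With 10 d replicate 1, 2, 3 or 4 left out, 108, 24, 71 or 57 regions had peaks at 48 h only. With only regions that held a base in 2 or more lists of each, the counts were 28 and 7.

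The named regions with peaks at 10 days only were led by chr2:98666255-98666430. It had 166 and 81 steps in Sox9 10 d replicates 1 and 4 and 135 and 113 steps in H3K4me3 10 d replicates 1 and 3, and no peak in the other 12 libraries. It lay in no protein-coding gene and 129 bp from a region present in 8 or more lists. A neighbouring shared region, chr2:98663705-98664062, reached 61 steps and was in 4 lists at 10 days and 2 at 48 h. The other named 10 d regions were low. Near the 3′ end of Gdf7, a ligand of the BMP family, Sox9 had 1 and 1 steps in 10 d replicates 1 and 3. H3K4me3 had 3, 1 and 2 steps there in 10 d replicates 2, 3 and 4. The summits lay 3152 to 3653 bp from the Gdf7 start, and the region also overlaps the gene Ldah. The regions chr1:183345149-183345753, inside Mia3, an organiser of collagen export from the endoplasmic reticulum, and chr9:102813726-102814127, in no coding gene, reached 3 and 2 steps.

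At 48 h only, 0 of the 4 named regions had a gene end within 1000 bp of a summit, and the highest peak was 2 steps. The region chr16:22411641-22411901 lay inside Etv5, an ETS transcription factor gene downstream of growth factor signalling in kidney development. It had 2 and 1 steps in Sox9 48 h replicates 2 and 4 and 1 and 2 steps in H3K4me3 48 h replicates 1 and 4. The region chr17:83318460-83318981 had the most lists, 6, with 1 and 1 steps in Sox9 48 h replicates 2 and 4 and 2, 1, 1 and 1 steps in H3K4me3 48 h replicates 1 to 4. The others were chr1:75388011-75388391, inside Speg, and chr11:3187483-3187923, inside Sfi1 and 1853 bp from a region in 8 or more lists. The Sfi1 region lay among many other shared regions and is not a separate locus.

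Joint presence of a Sox9 and an H3K4me3 library at shared regions is also a description, since presence chose them. Each frozen pellet had been divided between the antibodies, so it was measured as the log2 of regions with a peak in both lists over the number that the lists' own counts give. It averaged -0.01 for own pellets and 0.02 for other pellets of the same time, a difference of -0.03. Leaving out 1 pellet at a time, this difference ranged from -0.07 (without 48 h replicate 1) to nearly 0 (without 48 h replicate 3).

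Genes of developmental signalling and of the Sox family were among the members. A shared region lay within 1000 bp of an end of 608 of 20661 autosomal protein-coding genes (2.94%). Of the Sox family, 4 of 18 genes had a shared region (22.2%), namely Sox1, Sox2, Sox12 and Sox14. Of the Wnt pathway, 4 of 48 had one (8.33%), namely the receptors Fzd4, Fzd5 and Fzd8 and the ligand Wnt10a. The proximal tubule, kidney transcription factor, stress and hypoxia lists had 1 gene each, Slc27a2 of 20, Maf of 20, Hspa1b of 23 and Vegfa of 22. The lists of injured tubule (20 genes), Notch (22), Hippo (20), fibrosis and matrix (23), ribosomal proteins and histones (21), endothelium (15), immune cells (15), stroma (12) and genes silent outside their tissue (20) had 0. These lists hold selected genes, so 0 does not extend to a whole class. Rpl14, H2ac19 and H3c15, which are not in the lists, had shared regions. Sox9 was not among the members, nor was any of the 19 marker genes. These counts are a description.

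The Sox genes with a shared region had low peaks. Sox1, which acts in neural progenitors, ranked among the 15 named regions, with Sox9 peaks of 1 and 2 steps in 10 d replicates 3 and 4, against 2 and 1 steps in 48 h replicates 2 and 3. H3K4me3 stood there at 3 steps in 10 d replicate 2, against 2 steps in 48 h replicate 2. Sox2, a regulator of pluripotency, had Sox9 peaks of 1 step in 10 d replicate 1 and of 1 step in 48 h replicate 2, and H3K4me3 peaks of 2 and 1 steps in 10 d replicates 2 and 3 and none at 48 h. Sox14 had a highest peak of 2 steps in 5 lists and Sox12 of 1 step in 6 lists. Sox1 and Sox2 lie within the long noncoding genes Sox1ot and Sox2ot, so a peak there cannot be given to one of them.

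The Wnt receptors bind secreted Wnt ligands at the cell surface. The Fzd4 region, chr7:89404033-89405076, also holds the start of Tmem135, and had Sox9 peaks of 1 step in 10 d replicate 4 and of 1 and 1 steps in 48 h replicates 1 and 2. Its H3K4me3 peaks had 3 and 2 steps in 10 d replicates 1 and 3, against 1 step in 48 h replicate 1. Fzd5 had Sox9 peaks of 1 step in 10 d replicate 3 and of 1 step in 48 h replicate 3, with H3K4me3 at 2, 1 and 2 steps in 10 d replicates 1, 2 and 3, against 1 step in 48 h replicate 3. Both receptors had the taller peaks in H3K4me3 at 10 days. Fzd8 stood at 1 step in each of 5 lists, and Wnt10a reached 2 steps in H3K4me3 48 h replicate 1.

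The kidney and stress genes with a shared region also had low peaks. Slc27a2, which activates very long chain fatty acids in the proximal tubule, stood at 1 step in each of 4 lists, namely Sox9 10 d replicate 2, Sox9 48 h replicate 3 and H3K4me3 10 d replicates 1 and 4. Maf, a bZIP transcription factor, reached 2 steps in 1 of 5 lists. Vegfa, the angiogenic factor made by tubules and podocytes, reached 2 steps in 1 of 4 lists, H3K4me3 10 d replicate 3. Hspa1b, a stress-induced HSP70 gene, was in 7 lists with 1 step in 6 of them and 2 steps in H3K4me3 10 d replicate 1. Its neighbour Hspa1a is nearly identical in sequence, so reads of the pair may have been divided in the alignment.

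The tallest shared regions lay away from gene ends. By height alone, which was looked up after the values were seen, they were chr10:45941879-45942019 with 324 steps, chr2:98666255-98666430 with 166 and chr5:114172853-114173180 with 131. The regions named by the number of lists with taller peaks were lower but more widespread. Of these, chr10:37263691-37263813 had 4 steps in Sox9 10 d replicate 4 and 3 in Sox9 48 h replicate 1. In H3K4me3 it had 20, 7, 12 and 13 steps in 10 d replicates 1 to 4, against 13 steps in 48 h replicate 2. All 10 d H3K4me3 libraries thus held it, and 1 of 4 at 48 h. The region chr9:24542015-24542162 had 20 steps in Sox9 10 d replicate 1 and 3 in Sox9 48 h replicate 2, with H3K4me3 at 10, 2 and 4 steps in 10 d replicates 1, 2 and 4, against 4 and 3 in 48 h replicates 2 and 4. Both were 123 to 148 bp wide and lay in no protein-coding gene.

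The other named regions of this kind were chr5:75167830-75168002, inside the gene body of Pdgfra, the receptor that marks kidney fibroblasts, with up to 16 steps, and chr11:3180135-3180703, inside Sfi1, with up to 8. The Sfi1 region was not an isolated locus. Many other shared regions lay close to it on chromosome 11, within 10000 bp of regions present in 8 or more lists. Shared regions also lay in close groups on chromosomes 6, 8 and 17. Whether such groups reflect the genes they lie in was not tested. The region chr17:39845669-39846136 reached 7 steps and chr15:91106067-91106235 reached 6. Regions present in 8 or more lists were 1052 bp from the Pdgfra region, 2545 bp from the Sfi1 region and 858 bp from the chromosome 17 region. Of all shared regions, 106 lay within 10000 bp of such a recurrent region and 1383 farther away. With the 1383 alone, the gene-end difference was 26.5 points in Sox9 and 26.2 in H3K4me3.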

How the data were processed

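The 24 samples comprised 8 Sox9, 8 H3K4me3 and 8 input libraries, and each of the 16 antibody libraries had 1 peak list; input libraries were not analysed here by themselves. The tools were MACS3, Bowtie, Bowtie2 and Partek 10 on mm10, per the submitters' processing notes, and the peak names in the files set each library against its pellet's own input. Read filters, duplicate treatment and the peak threshold are not given in the sources used here. The authors' deposited fold is a ratio of pileup over local background, the deposited p-value and q-value are on the −log10 scale, and the deposited score is a display value that was not used. Pileups were solved from fold and p-value under a Poisson tail with 1 added to pileup and background. Fold and p-value were used within a list only, while heights were compared between lists in steps of each list. The step ran from a pileup of 60.1 (H3K4me3 48 h replicate 1) to 508 (Sox9 10 d replicate 3). Equal numbers of steps in different lists are therefore not equal pileups.

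Genes and starts came from RefSeq tables of GRCm38.p6; starts and promoters were not used on chromosome 18. Peaks on chromosomes 1 to 19 entered. A gene end or start was matched within 1000 bp of a summit, and for named regions and counts of genes within 1000 bp of the region. Tests were two-sided and exact over libraries (4 against 4, 8 against 8 within time, or sign flips over 8 libraries), with Benjamini-Hochberg adjustment over 13 tests, 8 planned and 5 added after the data were seen; 3 of the planned ones rest on presence, which chose the regions, and are given as values only. The smallest p is 0.0286 for 4 against 4 and 0.00781 for 8 sign flips. Intervals are Wilson intervals at 95%. Sox9 and H3K4me3 libraries with the same number and time were aliquots of 1 pellet by the labels' protocols. They were paired for that reason in the joint presence and the replicate block, while the 8 against 8 tests within time were unpaired. Joint presence was -0.01 in own and 0.02 in other pellets (log2). The 10 d and 48 h libraries share only a number. At most 13 peaks had equal ends in any pair of lists. Depth is unknown, so precision rests on the number of libraries.

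Named regions were up to 15 with a gene end, 6 without and 4 of each time only, ranked as described in the text, plus the regions at genes of 16 lists and up to 3 on each side of the rule; the result of 1 of these lists is not reported here. The members and lists were chosen with earlier results of these data known. Alternatives were a −log10 q-value of at least 5, 100 bp of overlap, distance from recurrent regions, and equal list lengths by p within each antibody. Others were 3000 bp windows, starts only, taller peaks only, a replicate block and leaving out a pellet. The setting of members with a base in 2 lists of each antibody was added after the data were seen. Scripts were tested on simulated data and ran in Python 3.11.15 with SciPy 1.17.1, pandas 2.3.3, NumPy 2.4.6 and, for figures, Matplotlib 3.10.9.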

Additional observations from a re-analysis of the deposited data

Results flagged for a closer look

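Of 32 checks for a library far from the other 3 of its group, 6 stood out, and chance alone gives about 1 in 20 groups. The checks overlap, as with gene ends and gene starts, so their count cannot be set against that rate. In the share of peaks at gene ends within shared regions, H3K4me3 48 h replicate 3 was high at 33.5% and Sox9 48 h replicate 1, the shortest list, was low at 20.6%. At gene starts, H3K4me3 48 h replicate 3 was high at 32.1% and Sox9 10 d replicate 1, the longest Sox9 list, was low at 24.7%. The median summit position was 53 bp downstream of the start in H3K4me3 10 d replicate 1, against 155 to 161 bp in the other 10 d libraries. The median width of peaks at shared regions was 172 bp in Sox9 10 d replicate 4, against 183 to 184 bp in the others. Outside the autosomes, 50 of 17610 merged regions on the X chromosome met the same rule, as did 15 of 5253 on Y and 1 of 3 on the mitochondrial genome.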

How the results depend on the processing

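Outside the leave-one-out settings, 74 of 83 recomputed values kept their direction and side of the threshold, or stayed near their count. Taller peaks in Sox9 minus H3K4me3 were 5.80 points with lists of equal length within each antibody but not between them, in place of -8.89. With a base in 2 lists of each antibody required, taller H3K4me3 peaks between times gave 7.48 points (now passing), matched gene starts -6.37 points in Sox9 and -10.0 in H3K4me3, regions at 10 days only 28, at 48 h only 7, and members 697. It also gave gene ends of 13.3 points in Sox9 and 13.2 in H3K4me3 and a summit position of -31.9 bp. With the rule applied again at 100 bp of overlap, members numbered 819, and this removes narrow overlaps by construction. The other values of that setting and of the q-value setting kept the 1489 regions. Gene ends in H3K4me3 gave 2.61 points with taller peaks only.

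Leaving out 1 pellet in turn, 114 of 128 values kept their call. Members numbered 830 (without 10 d replicate 1) to 1275, with 10 d only 85 to 226 and 48 h only 13 to 108. The H3K4me3 share between times ranged from -0.294 to -0.148 points, its taller peaks from 3.42 to 9.76 points, and the summit position from -17.1 to 2.21 bp (1.54 without 10 d replicate 3, 2.21 without 10 d replicate 4, 2.04 without 48 h replicate 2). The causes were not tested.

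With a replicate block the differences were unchanged and no call changed. Paired by pellet, taller peaks gave -8.89 points (exact sign-flip permutation p = 0.00781) and the summit position -3.75 bp (p = 0.828). Blocked by number between times with the same exact permutation test, shares gave -0.850 and -0.205 points, taller peaks 2.58 (p = 0.5) and 7.48 points (p = 0.125), and 0.125 is the smallest p of 4 sign flips. The step height in a list limits what can be ranked, and depth is unknown.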

Other observations

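Some lists without a shared region still had peaks of both antibodies at their starts in single libraries. Of 16 Hippo pathway genes with a start in the table, a mean of 20.3% had a Sox9 peak and 30.5% an H3K4me3 peak within 1000 bp of the start per library, against 8.56% and 15.9% of all 16456 genes. Of 18 Notch genes, 15.3% had a Sox9 peak and 25.7% an H3K4me3 peak. In the injured tubule list the shares were 5.36% and 7.14% of 14 genes, and in the stroma list 1.79% and 1.79% of 7. These are descriptions of small lists with no test.

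A shared region lay at an end of 608 genes and a one-sided region at an end of 630, and 9 genes had both. Overlapping peaks at an end are joined into 1 region, which is of 1 kind only, so this count follows in part from the merging. In 5 genes more than 1 shared region was found, namely H2ac19, H3c15, Insig1, LOC100504180 and Slc24a3. H2ac19 and H3c15 are histone genes of a cluster with near-identical copies, so their peaks are uncertain.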
